A study of Canis lupus familiaris with 8 samples.

Results

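The miRNAs described here are miR-130a, miR-130b, miR-301a and miR-301b, which form the miR-130 family, and miR-148a, miR-148b and miR-152, which form the miR-148 family. They were chosen by name: every listing on the array for one of these 7 miRNAs, canine (cfa-) or murine (mmu-), with the names of the opposite hairpin strand, marked by a star, left out. This gave 8 of the 1224 listings on the array. Of these, 7 were canine and 1, mmu-miR-301b, was murine. Of the 8 listings, 7 had at least 1 feature that passed the filter on dim features, among 438 such listings in all.

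Serum of 8 client-owned adult Doberman Pinschers, for which the labels give ages of 7 to 11 years although the study lists a younger dog in the DCM group, was compared on one-colour miRNA arrays of a single slide. The DCM group held 4 dogs with dilated cardiomyopathy in the occult stage, in which the heart is changed but the owner sees no signs of disease (arrays DoCM5, DoCM6, DoCM7 and DoCM8), and the control group held 4 healthy dogs (arrays Con1, Con2, Con3 and Con4). Each array stands for a separate dog. The dogs with DCM were on pimobendan, an ACE inhibitor and sotalol or amiodarone per the study's methods, so that disease and drugs cannot be told apart. The slide had the 4 DCM arrays in its first row and the 4 control arrays in its second, and the row cannot be told apart from the group. The study left out the array it calls DoCM8 because its expression levels stood apart, and the label was followed here. In the deposited values, however, the array labelled DoCM8 had a median correlation of 0.968 with the others, the highest of the 8, while DoCM5 stood apart at 0.924. The study adds that its left-out sample had stronger miRNA signals and a very low RNA yield. Before normalization DoCM5 was the brightest array, with a median log2 signal of 5.09, while DoCM8 was at 4.03. Whether the numbers of the study and of the labels name the same dogs is not known. The main comparison was that of 3 DCM arrays, without DoCM8, with 4 control arrays, and values over all 8 arrays and without DoCM5 stand beside it.

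MicroRNAs bind messenger RNAs mainly through the seed, a short stretch near their 5′ end, and lower the translation or stability of the target. The miR-130 and miR-148 families have seeds that are nearly the same when the seed of one family is shifted by a single base against the other. The miR-130 family is known for repressing PPARγ and for its part in remodelling of the pulmonary vessels, and the miR-148 family for repressing the DNA methyltransferase DNMT1. In the gene table of the dog assembly UU_Cfam_GSD_1.0, a gene was found for 7 of the 7 miRNAs. MIR130B and MIR301B were direct neighbours there. MIR301A lay close to MIR454, another miRNA gene with the miR-130 seed. In the order of genes there, SKA2 came before MIR454 and PRR11 came after MIR301A. MIR152 was listed after COPZ2 and before NFE2L1. Such an order does not show whether a miRNA gene lies inside a neighbouring gene.

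Each listing had 40 features on an array, and a feature was called well above background by the scanner software. The listings fell into those seen everywhere, those seen in part and one not seen. cfa-miR-130a, cfa-miR-130b, cfa-miR-301a, cfa-miR-148a and cfa-miR-148b were well above background on all 40 features of all 8 arrays, which is 320 of 320 features each. Over these 5 miRNAs the signal of the 20 features of a probe had a coefficient of variation between 3.55% and 14.8% on an array, with a median of 8.01%.

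cfa-miR-152, which lies in an intron of COPZ2 in mammals, was seen on 12, 6, 9 and 9 of its 40 features on arrays DoCM5, DoCM6, DoCM7 and DoCM8. On arrays Con1, Con2, Con3 and Con4 the numbers were 21, 6, 13 and 3. The groups overlapped, and the total came to 79 of 320 features (24.7%). It was almost wholly one of its 2 probes that gave this signal, with 76 of 160 features well above background against 3 of 160 for the other.

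cfa-miR-301b, the neighbour of miR-130b, was seen on 20 of its 40 features on array DoCM5 and on 1, 0 and 0 on DoCM6, DoCM7 and DoCM8, with 2, 0, 4 and 0 on the control arrays. All 27 of these features belonged to one of the 2 probes, and on DoCM5 that was every one of its 20 features. The mean signal of this probe was 14.0 scanner units on DoCM5 and between 0.943 and 4.34 on the other arrays. For its other probe no feature of 160 was well above background. mmu-miR-301b, read by 4 probes of 10 features each, was not well above background on any of its 320 features, so that no level or fold change is given for it, and the canine and murine listings of miR-301b could not be compared.

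**Figure D1:**
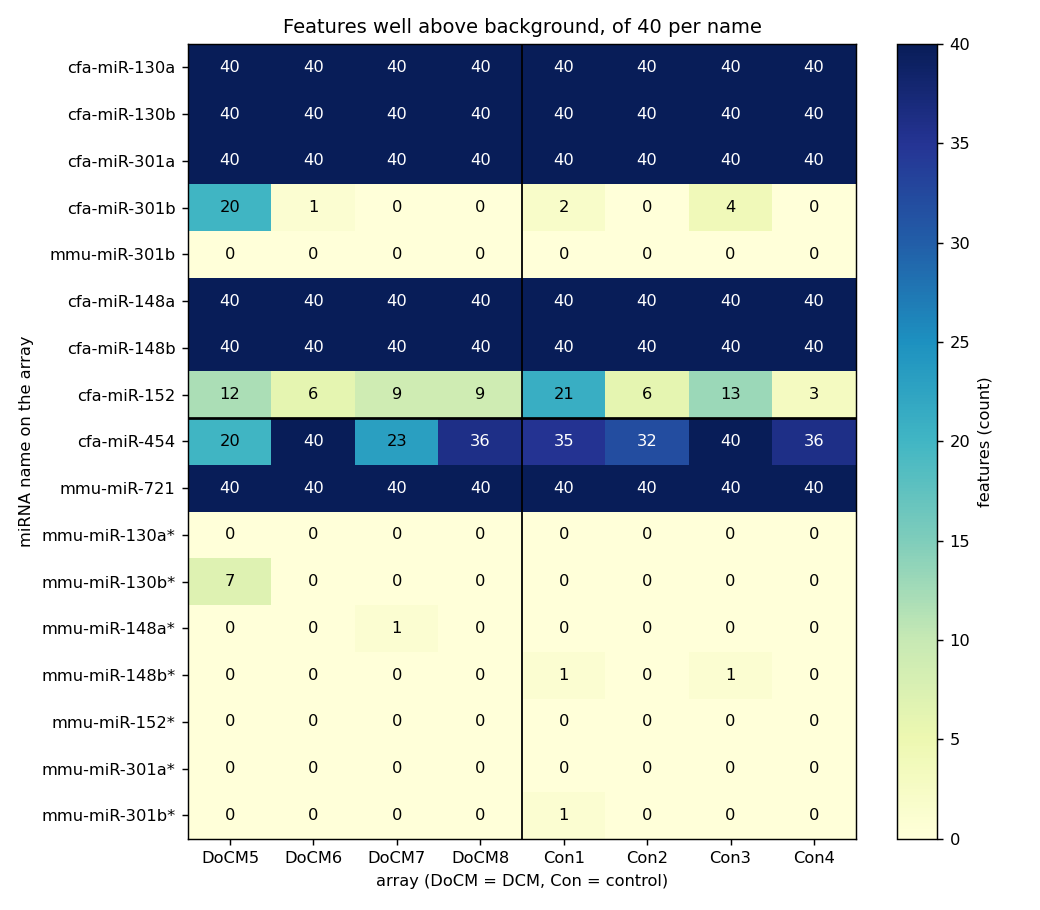
Number of features well above background, of 40 per listing, for the 8 listings of both families (above the line) and for 9 related listings (below it), on the 4 DCM and 4 control arrays. The 5 canine listings are at 40 on every array, cfa-miR-152 is between 3 and 21, and cfa-miR-301b reaches 20 on DoCM5 against at most 4 elsewhere.

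Of the 9 related listings, 2 were kept. mmu-miR-721, which carries the miR-130 seed, was well above background on all features of all arrays. For cfa-miR-454 the numbers of features were 20, 40, 23 and 36 on arrays DoCM5 to DoCM8 and 35, 32, 40 and 36 on Con1 to Con4. The other 7 were the opposite strands of the hairpins, listed for the mouse: miR-130a*, miR-130b*, miR-148a*, miR-148b*, miR-152*, miR-301a* and miR-301b*. None had a kept feature. mmu-miR-130b* was well above background on 7 of 40 features on DoCM5 and on no feature of another array, while the remaining 6 had at most 2 of 320 features in all.

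No miRNA of either family passed the test between the groups. A call needed a fold change over 1.5 at an unadjusted limma p under 0.05. Both limits were met by 0 of the 7 kept listings, against 12 of all 438 tested (2.74%). After Benjamini-Hochberg adjustment over the 438, limma called none at 0.05 (0%), with 12 at an unadjusted p under 0.05. The adjusted p of each of the 7 was 0.997, which was also the smallest of all 438. The smallest adjusted p of limma was 0.392 over all 8 arrays and 0.306 with DoCM5 left out in place of DoCM8. Over all 8 arrays the call was again missed by each of the 7, against 18 called of 438 (4.11%). The values of DCM and control arrays overlapped for each of the 7, whereas 19 of the 438 had groups without overlap on the 7 arrays (4.34%). In the main comparison the exact two-sided permutation test has 35 splits and cannot go below p = 0.0286. Levels below are vsn-normalized signals on the glog2 scale, which is close to log2 for bright signals, and differences are DCM minus control on that scale, with limma's standard error (SE). More cells that release a miRNA into serum and more release per cell cannot be told apart in such values.

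miR-130a, known to promote the growth of blood vessels, had nearly the same mean in both groups. The glog2 values were 5.23, 5.03 and 5.91 on arrays DoCM5, DoCM6 and DoCM7 and 5.69, 5.30, 5.05 and 5.49 on Con1 to Con4. DoCM7 lay above every control and DoCM6 below every control. The means were 5.39 ± 0.46 (SD, n = 3) and 5.38 ± 0.27 (SD, n = 4). The log2 difference was 0.0062 (SE 0.35, limma p = 0.986, exact permutation p = 1), and its 95% interval ran from 0.594-fold to 1.70-fold. With all 8 arrays, where DoCM8 was the highest at 6.004, the log2 difference was 0.18 (limma p = 0.569, exact permutation p = 0.60).

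miR-130b, named for effects on fat cell formation through PPARγ, was measured at 6.09, 5.50 and 5.83 on DoCM5, DoCM6 and DoCM7 and at 5.23, 5.08, 5.52 and 5.85 on Con1 to Con4. Only DoCM5 lay above every control, and all 3 DCM arrays lay above the control mean. The log2 difference of 0.38 (SE 0.34) was within the spread, with a limma p of 0.278 and an exact permutation p of 0.229. On DoCM8 the value was 5.11 in the normalization of all 8 arrays, below the control mean of 5.38, and the log2 difference then was 0.23 (limma p = 0.464, exact permutation p = 0.457).

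miR-301a, which in mammals lies in an intron of SKA2 and is known to raise NF-κB activity, stood high on a single DCM array. Its values were 7.37 on DoCM5, 6.10 on DoCM6 and 6.14 on DoCM7, against 6.18, 5.93, 6.35 and 6.54 on Con1 to Con4. DoCM6 and DoCM7 lay within the range of the controls. The SD was 0.72 in the DCM group (n = 3) and 0.26 in the control group (n = 4). The log2 difference was 0.29 (SE 0.39, limma p = 0.473, exact permutation p = 0.629). DoCM8, at 6.50 with all 8 arrays, also lay within the range of the controls.

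miR-301b, dim on most arrays, rested on 2 kept features of 1 probe. The glog2 values were 3.11, 1.75 and 1.31 on DoCM5, DoCM6 and DoCM7 and 1.60, 0.029, 1.70 and 0.78 on Con1 to Con4. At least 50% of these 2 features were well above background on DoCM5, DoCM6, Con1 and Con3, but they were kept for that flag, and of all 40 features only 1 was well above background on DoCM6 and 2 on Con1. The log2 difference was 1.03 (SE 0.52, 95% interval from -0.11 to 2.17, limma p = 0.0720, exact permutation p = 0.229). With all 8 arrays it was 0.95 (limma p = 0.0591, exact permutation p = 0.143). It passed both limits when DoCM7 was left out (log2 difference 1.48), when Con3 was left out (1.27) and under quantile normalization (1.66). It was 0.11 under normexp correction with quantile normalization and 0.72 without Con2 or without the filter on dim features. When DoCM5 was left out as well as DoCM8 it was 0.35.

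miR-148a, abundant in the liver and known to repress the LDL receptor and ABCA1, was at 8.24, 7.88 and 7.48 on DoCM5, DoCM6 and DoCM7. The controls were at 7.72, 7.06, 7.77 and 7.61. DoCM5 and DoCM6 lay above every control and DoCM7 below the control mean. The log2 difference was 0.32 (SE 0.34, limma p = 0.366, exact permutation p = 0.343), and 0.31 with all 8 arrays (limma p = 0.302), where DoCM8 was at 7.73. Single arrays moved the main value: it was 0.16 without DoCM5, 0.18 without Con2 and 0.56 without DoCM7.

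miR-148b, of the same seed, was at 6.87 on DoCM5 and at 5.78 and 5.80 on DoCM6 and DoCM7, against 5.83, 5.39, 6.22 and 5.84 on the controls. As for miR-301a, DoCM5 lay above every control and the other DCM arrays within the range of the controls. The log2 difference of 0.33 (SE 0.38) had a limma p of 0.403 and an exact permutation p of 0.486. DoCM8 was at 5.97 in the normalization of all 8 arrays.

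miR-152, known for repressing DNMT1, had a dim signal and overlapping groups. It was at 2.70, 2.21 and 2.95 on DoCM5, DoCM6 and DoCM7 and at 3.37, 2.84, 2.14 and 2.17 on Con1 to Con4, with the highest and the lowest value both among the controls. The log2 difference was -0.0085 (SE 0.39, 95% interval from 0.547-fold to 1.81-fold, limma p = 0.983, exact permutation p = 1). Averaged per probe first, an alternative added after seeing the data, the difference was -0.64, and with 75th percentile scaling over the detected miRNAs it was -0.44. It was called well above background, with at least 50% of its 19 kept features, on DoCM5, Con1 and Con3.

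**Figure D2:**
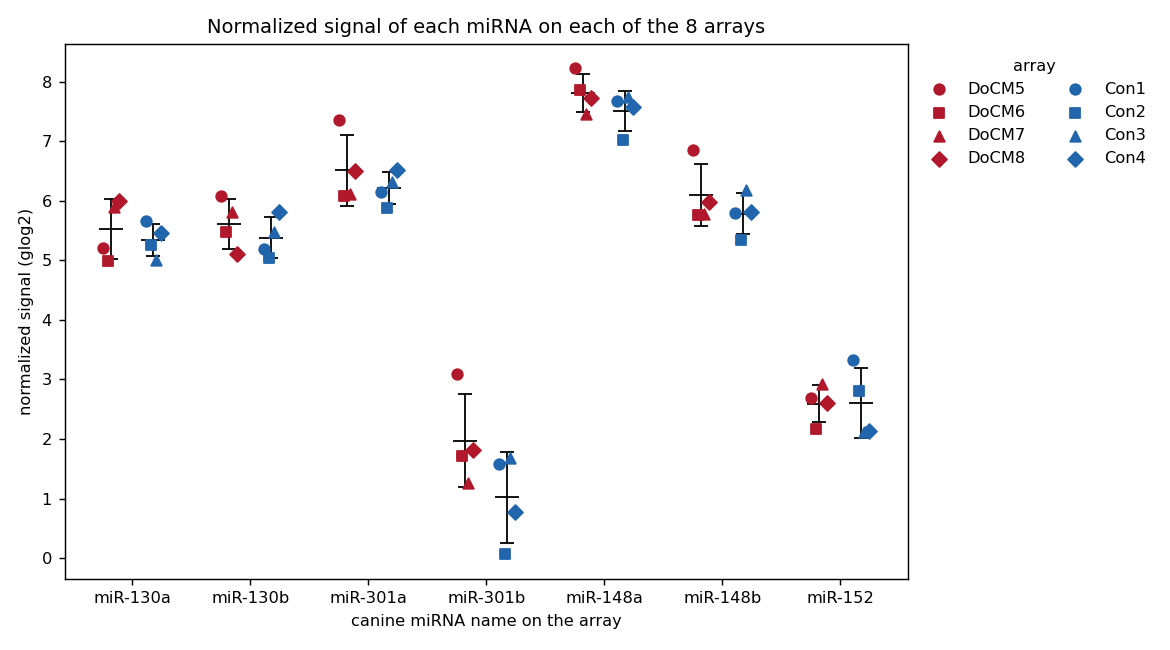
Normalized signal (glog2) of the 7 kept listings on each of the 8 arrays, normalized together, with DCM in red and control in blue. Black marks are the group mean with its SD (n = 4 each), and the groups overlap for every listing, with DoCM5 at the top for miR-130b, miR-301a, miR-301b, miR-148a and miR-148b.

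Among the 7 kept listings, 6 had a mean that was higher in DCM, with a median log2 difference of 0.32, though miR-130a turned to -0.036 with 75th percentile scaling over the detected miRNAs and miR-148b to -0.39 with the median over features. With DoCM5 left out in place of DoCM8 the median of the 7 was 0.079, with 6 higher, and with both left out it was 0.10, with 4 higher. Over all 438 listings in the main comparison 218 were higher (49.8%) and the median was -0.0032. The 7 listings share the same arrays, and array DoCM5 stood high for most of them. In the normalization of all 8 arrays DoCM5 had the highest value of the 8 for 5 of the 7: miR-130b, miR-301a, miR-301b, miR-148a and miR-148b. Over all 438 listings it was the highest for 135 (30.8%) and the lowest for 124 (28.3%). Con2 was the lowest of the 8 arrays for miR-130b, miR-301a, miR-148a and miR-148b, all well above background there, while it was the lowest for 86 of all 438 listings (19.6%).

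Relative to the mean of the control arrays, DoCM5 deviated by 2.07 for miR-301b (a value set by control arrays of which 2 were not well above background), 1.14 for miR-301a, 1.08 for miR-148b, 0.72 for miR-148a and 0.69 for miR-130b. It deviated by -0.13 for miR-130a and by 0.079 for miR-152. The latter is set by control arrays of which 2 were not well above background. Over all 438 listings the median deviation of DoCM5 was -0.072. Set against its own mean over the other 7 arrays, miR-301a was 1.13 higher on DoCM5, and 54 of the 438 listings (12.3%) were raised more. For miR-148b the excess was 1.06, with 67 listings (15.3%) above it. It was 0.66 for miR-130b, with 121 listings (27.6%) above it, and 0.64 for miR-148a, with 123 (28.1%). The difference was 0.095 for the dim miR-152, with 194 listings (44.3%) above it, and -0.25 for miR-130a, with 257 (58.7%). No such excess is given for miR-301b, which had no feature well above background on 4 of the other 7 arrays.

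Array DoCM5 also stood apart from the rest as a whole. The other 7 had median correlations of 0.957 to 0.968, all above its own. DoCM5 was the brightest before normalization, with a median log2 signal of 5.09 against 3.68 to 4.85. The range of features well above background, 10817 to 14000 per array, had DoCM5 inside it at 12712, and no feature was saturated.

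**Figure D3:**
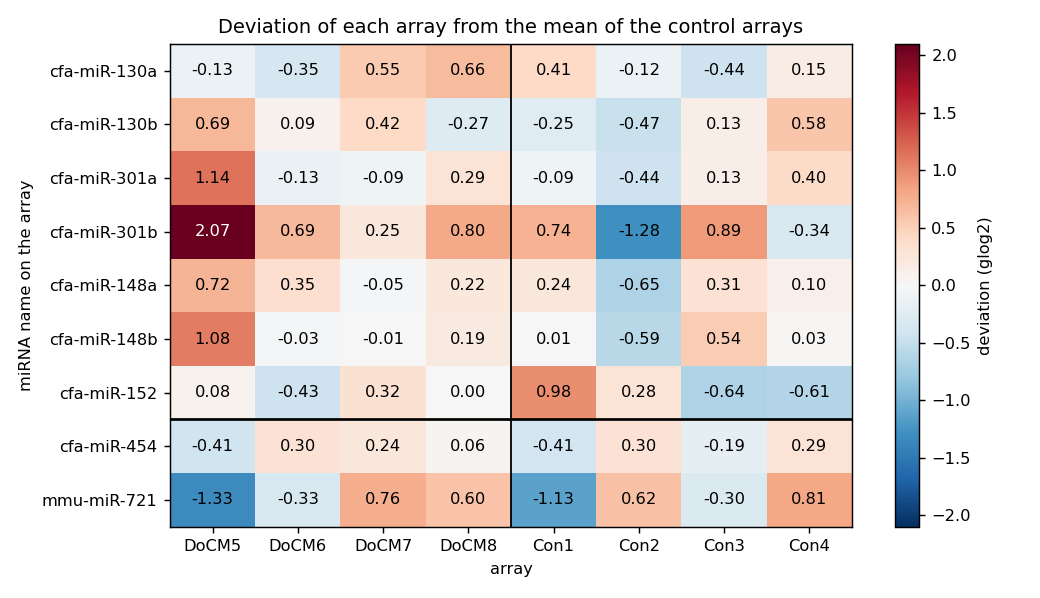
Deviation (glog2, colour and number) for the 7 kept listings and, below the line, the 2 kept related listings. Each DCM array is set against the mean of the 4 control arrays, and each control array against the mean of the other control arrays. DoCM5 is at 1.14 for cfa-miR-301a and 1.08 for cfa-miR-148b, near 0 for cfa-miR-130a and cfa-miR-152, and at -1.33 for mmu-miR-721.

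With DoCM5 left out in place of DoCM8, the differences of the 5 miRNAs highest on DoCM5 were smaller, which follows from their choice by that array, so that their sizes are given as a description. For miR-301a the log2 difference fell from 0.29 to 0.023 (SE 0.21, exact permutation p = 0.943), with values of 5.95, 6.01 and 6.33 on DoCM6, DoCM7 and DoCM8 against 5.99, 5.79, 6.15 and 6.37 on the controls. For miR-148b it fell from 0.33 to 0.054 (SE 0.21, exact permutation p = 0.771). By the same exact permutation test, the difference of miR-130b was 0.079 (p = 0.771), that of miR-148a 0.18 (p = 0.543) and that of miR-301b 0.43 (p = 0.314). For miR-130a the difference was 0.28 (exact permutation p = 0.314) and for miR-152 it was -0.043 (p = 0.943). In this set the intervals of miR-301a and miR-148b were narrower, which follows in part from leaving out the array on which they stood highest. That of miR-301a ran from 0.734-fold to 1.41-fold, against 0.678-fold to 2.19-fold in the main comparison, and that of miR-148b from 0.742-fold to 1.45-fold. With both DoCM5 and DoCM8 left out, the log2 difference was -0.11 for miR-301a and -0.012 for miR-148b, with intervals from 0.638-fold to 1.35-fold and from 0.658-fold to 1.49-fold.

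**Figure D4:**
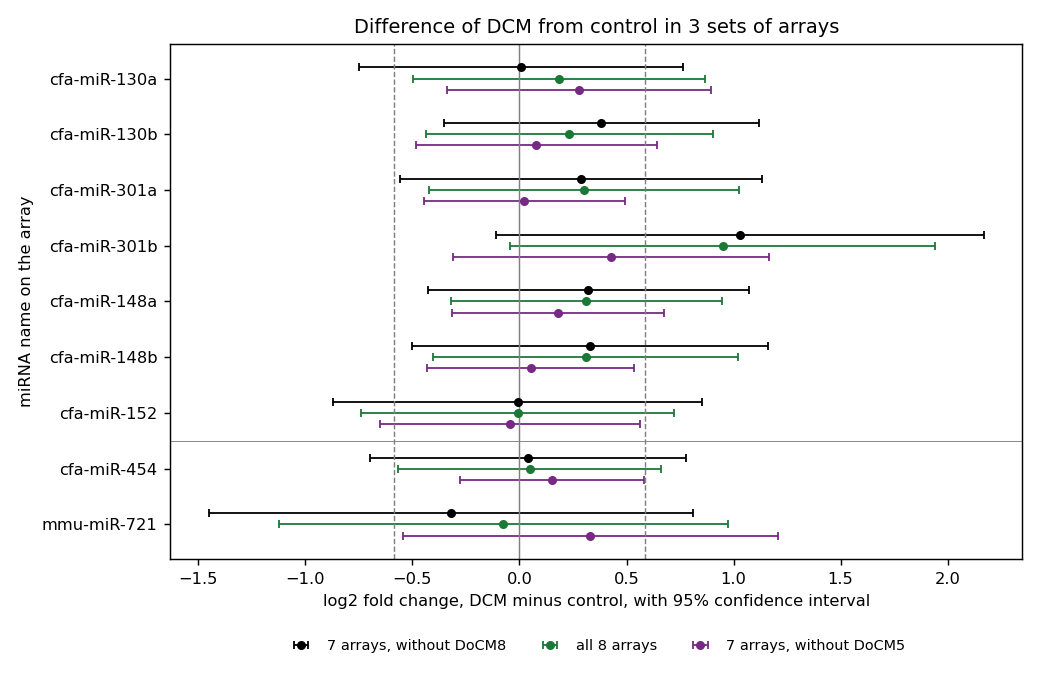
Log2 fold change of DCM against control with its 95% confidence interval for the 7 kept listings and, below the line, 2 related listings, in 3 sets of arrays: without DoCM8 (the main comparison), all 8, and without DoCM5 but with DoCM8. Dashed lines mark a fold change of 1.5, and every interval includes 0.

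Each canine listing was read by 2 probes with separate probe names on the same serum, and their readings are not independent. For miR-130b both probes gave a log2 difference close to that of the listing, 0.42 and 0.41, as they did for miR-301a (0.22 and 0.28), for miR-148a (0.34 and 0.30), for miR-148b (0.36 and 0.38) and for miR-130a (0.013 and 0.0076). The high value on DoCM5 was read by both probes of miR-301a and of miR-148b. For miR-301a their signals before normalization between arrays were 243 and 498 scanner units on DoCM5, against 26.9 to 77.6 and 56.0 to 168 on the other arrays. For miR-148b they were 121 and 406 on DoCM5, against 14.7 to 51.8 and 44.5 to 164. For miR-130a, whose normalized value was not raised on DoCM5, both probes were also brightest there, at 73.9 and 88.6 against 24.9 to 57.6 and 31.3 to 67.4, and DoCM5 was the brightest array before normalization. The 2 probes of miR-152 gave differences of -1.16 and 0.016, the former from 1 kept feature.

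**Figure D5:**
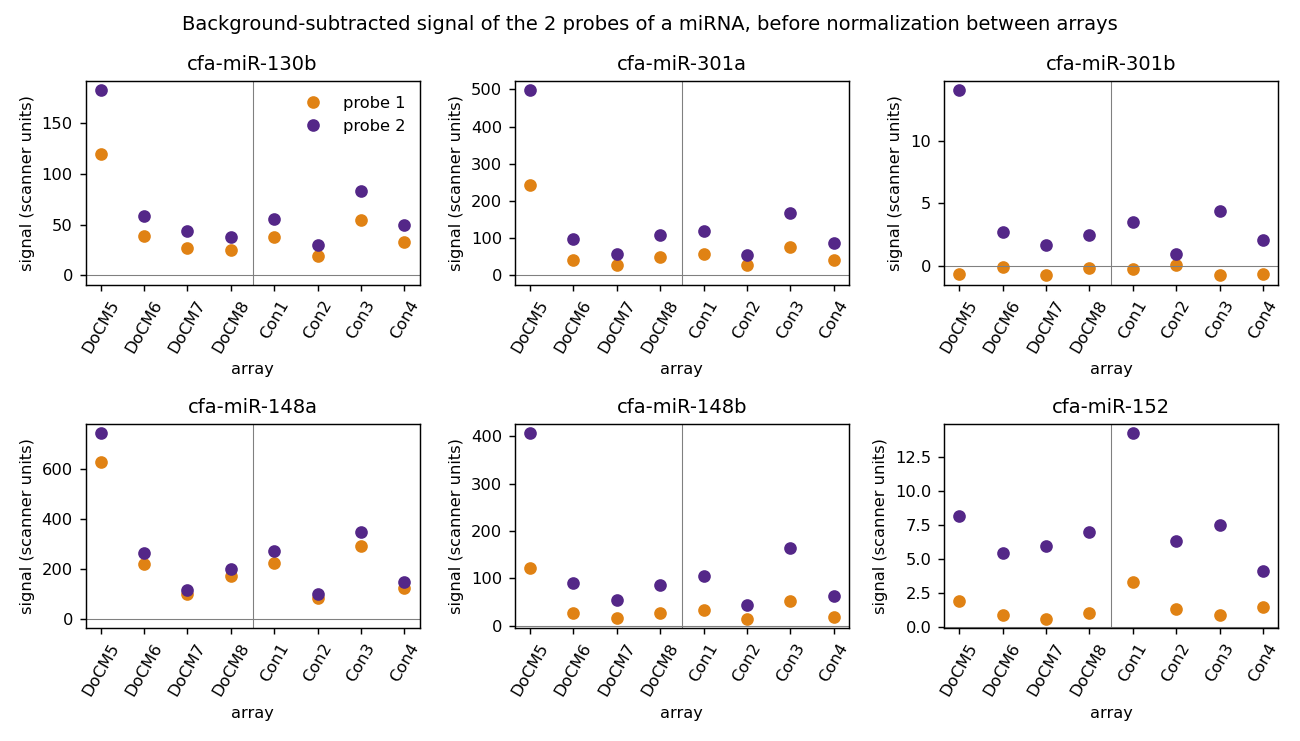
Background-subtracted signal (scanner units, before normalization between arrays) of the 2 probes of 6 miRNAs on the 8 arrays, each point the mean over all features of a probe. Both probes of cfa-miR-301a and cfa-miR-148b are highest on DoCM5, while for cfa-miR-301b only probe 2 rises, to 14.0, and probe 1 stays near 0.

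After normalization, the 2 related miRNAs with the miR-130 seed were lowest on DoCM5. Before normalization neither was lowest there. The 2 probes of miR-454 were at 8.47 and 8.88 scanner units on DoCM5 and at 6.81 and 7.75 on DoCM7. The 4 probes of mmu-miR-721 were at 36.5 to 39.0 on DoCM5 and at 32.3 to 34.5 on Con1. The normalized values follow. miR-454, whose gene lies close to that of miR-301a, was at 2.72, 3.44 and 3.38 on DoCM5, DoCM6 and DoCM7 and at 2.84, 3.37, 2.996 and 3.36 on the controls, and DoCM5, the highest array for miR-301a, was its lowest. The log2 difference was 0.038 (limma p = 0.911, exact permutation p = 0.857). mmu-miR-721 was at 4.23, 5.25 and 6.32 on the DCM arrays and at 4.74, 6.06, 5.36 and 6.18 on the controls, again with DoCM5 lowest (log2 difference -0.32, limma p = 0.548, exact permutation p = 0.657). For the pair of miR-130b and miR-301b, DoCM5 was the highest array for both.

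Lists of miRNAs known from blood cells and other sources were read beside these values, in canine and murine listings. Among 5 erythrocyte listings, 2 passed both limits, mmu-miR-144 and mmu-miR-144*, and both rose, against 12 of all 438 (2.74%). These 2 are opposite strands of the same hairpin. The rest of the erythrocyte list did not pass, with log2 differences of 0.58 for cfa-miR-144, 0.25 for cfa-miR-185 and -0.037 for cfa-miR-451. Over all 8 arrays 3 of the 5 passed, against 4.11% of all. The summed level of that list (log2 of the summed signals, over all 8 arrays), dominated by cfa-miR-451, was 16.51 to 17.19 in DCM and 16.76 to 17.10 in control, and was lowest on DoCM5. Of 8 leukocyte listings 1, mmu-miR-142-3p, passed and rose. In the main comparison 5 of the 8 were higher in DCM, with a median log2 difference of 0.088. The lower ones were mmu-miR-223 (-0.45), cfa-miR-223 (-0.38) and cfa-miR-146a (-0.028). The summed level of the leukocyte list was 12.25 to 13.31 in DCM and 12.83 to 13.27 in control, with DoCM5 at 12.43. None of 7 listings of platelets and endothelium passed (12.20 to 13.28 against 12.84 to 13.30, DoCM5 at 12.58), nor any of 3 of the liver (8.67 to 9.15 against 8.68 to 9.62, DoCM5 lowest at 8.67). mmu-miR-223 was the brightest listing of both the leukocyte and the platelet list. Of 6 heart listings 3 were kept and none passed, while cfa-miR-133a, cfa-miR-208a and cfa-miR-208b had no kept feature. The summed level of the heart list was 6.69 to 7.29 in DCM and 5.85 to 8.47 in control. On DoCM5, where miR-301a, miR-301b, miR-148a, miR-148b and miR-130b were highest, none of these 5 sums was above the range of the other arrays.

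The miRNAs whose values followed the mean of a family most closely over the 8 arrays were looked for among 429 other listings, with Pearson's r as a description. For the mean of the 4 kept miR-130 listings they were cfa-miR-19a (r = 0.980), mmu-miR-19b (r = 0.967) and mmu-let-7i (r = 0.959), against a median r of -0.14. For the mean of the 3 kept miR-148 listings they were cfa-miR-362 (r = 0.948), with 2 kept features, cfa-let-7g (r = 0.946) and mmu-miR-425* (r = 0.945), with 7 kept features, against a median of -0.13. All 6 were highest on DoCM5, which follows in part from their choice, since both means were highest there. These means include miR-301b and miR-152, which were not well above background on 4 and 5 of the 8 arrays. Without them, an alternative added after seeing the data, the order was another one. The mean of miR-130a, miR-130b and miR-301a was followed most closely by mmu-miR-7b (r = 0.896), mmu-miR-697 (r = 0.880, with 8 kept features) and cfa-miR-19a (r = 0.872). The mean of miR-148a and miR-148b was followed by cfa-miR-350 (r = 0.990), mmu-miR-15b* (r = 0.987) and mmu-miR-107 (r = 0.984), and without DoCM5 these were at 0.983, 0.980 and 0.983. Over the 7 arrays without DoCM5, cfa-miR-19a was at 0.951 for the mean of 4 listings and at 0.751 for the mean of 3, and cfa-let-7g was at 0.880 for the mean of 3 miR-148 listings. By the same measure mmu-miR-19b was at 0.923, mmu-let-7i at 0.895, cfa-miR-362 at 0.863 and mmu-miR-425* at 0.848. For the mean without miR-301b, mmu-miR-7b was at 0.876 and mmu-miR-697 at 0.906. All were chosen by r over 8 arrays that include these 7, so high values here follow in part from that choice. The points share the arrays, their brightness and the normalization.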

How the data were processed

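The authors deposited, per the file headers, the output of Agilent Feature Extraction 10.7.3.1: for each array an intensity per feature, already background-subtracted and not normalized between arrays, with flags. A table of the same intensity values was used as an alternative. Control features were left out, as were outlier-flagged features on the array concerned. A feature was kept where 2 or more of the 4 arrays in either group had it well above background. The mean per listing was normalized by an own implementation of the vsn model (arsinh scale, trimming quantile 0.9 over 5 slices, 7 iterations), checked on simulated data. Groups were compared with limma 3.58.1 in R 4.3.3 and with exact two-sided permutation tests. Figures used matplotlib 3.10.9.

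The miRNAs and lists were chosen with earlier results of these data known. Named were all listings of both families, their related miRNAs, the 3 listings most like each family, and the brightest and the changed markers. The methods' arrays and filter were followed. The leaving out of outlier-flagged features is not described in the study's methods, and the vsn code was not the study's. At the same limits the study listed more miRNAs than passed in the main comparison here, so its count was not matched. The age of the dogs is that of the labels. Normexp correction was run on the median signal. The array headers give another dog assembly than the gene table, so no coordinates are printed, and no miRNA sequences were used here. The small number of arrays limits precision, which also depended on the arrays used. With 3 DCM and 4 control arrays, the SE of miR-301a was 0.39 without DoCM8 and 0.21 without DoCM5, the array on which it was highest.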

Additional observations from a re-analysis of the deposited data

How the results depend on the processing

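Of 138 differences of the 7 listings recomputed under an alternative, 125 kept their direction and their side of the limits, 10 changed sign and 3, all of miR-301b, passed both limits. The number of the 7 past both limits, 0, became 1 under quantile normalization and ran from 0 to 1 when single arrays were left out. The log2 difference of miR-130a was -0.036 with scaling to the 75th percentile of the detected miRNAs, and that of miR-148b was -0.39 with the median over features, against 0.33 with the mean. That of miR-301a was 0.76 with the median. The signal of one probe of miR-148b was 3.02 to 3.35 times that of the other, and the median over features fell between them. The cause was not tested. Leaving out one array at a time gave log2 differences from -0.22 to 0.21 for miR-130a and from 0.25 to 0.56 for miR-130b. They ran from -0.11 to 0.53 for miR-301a and from 0.35 to 1.48 for miR-301b. In the miR-148 family they ran from 0.16 to 0.56 for miR-148a, from -0.012 to 0.56 for miR-148b and from -0.21 to 0.25 for miR-152. Beyond these ranges, miR-152 was at -0.64 with the averaging per probe first and at -0.44 with scaling to the 75th percentile of the detected miRNAs, and miR-301b at 0.11 with normexp correction and quantile normalization together. Scaling to the 75th percentile of all miRNAs gave 0.32 for miR-130a, 0.71 for miR-130b, 0.65 for miR-301a, 0.70 for miR-148a and 0.68 for miR-148b, none past both limits. For miR-301a and miR-148b the sign turned with both DoCM5 and DoCM8 left out. The count of all 438 past both limits, 12, became 19 with DoCM5 left out in place of DoCM8, 23 with scaling to the 75th percentile of the detected miRNAs, 2 with normexp correction of the median signal together with quantile normalization, 44 without the filter on dim features (1224 listings tested) and 7 with at least 50% of the features kept (349 tested). Leaving out one of the 7 arrays at a time gave 10 to 30 calls, 29 without DoCM5 and 30 without DoCM6. Scaling to the 75th percentile moved the median difference of all listings to -0.25 (detected miRNAs) or 0.11 (all miRNAs), and the split of higher and lower calls was 6 and 6 in the main comparison, 2 and 21 or 4 and 7 under these, and 4 and 8 under quantile normalization. The replicate numbers pair no arrays, since DCM arrays are numbered 5 to 8 and control arrays 1 to 4. A fit with the slide column as a block, where each column but that of DoCM8 holds 1 array of each group, gave 13 calls, none of them among the 7. The averaging per probe first and the keeping of flagged features were chosen after seeing the data and gave 11 calls each. The canine and murine listings could not be compared for any member. By the adjusted p of limma, 1 listing, cfa-miR-376a, named after its value was seen and not one of the 7, passed 0.05 with scaling to the 75th percentile of the detected miRNAs (smallest adjusted p = 0.0354), and none of the 438 in the main comparison. Dim signal limits miR-301b and miR-152.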
